A study of Mus musculus with 4 samples.

Results

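The 10 genes described here are the feedback inhibitors of cytokine and growth hormone signalling Cish, Socs1, Socs2 and Socs3, the transcription factors Stat3, Stat5a and Stat5b, and the growth hormone receptor Ghr with the secreted growth hormone outputs Igf1 and Igfals. They were chosen by name from 18193 mouse genes that the array named through probe sets with a single gene symbol, and they had 27 such probe sets among 45101. Where a gene had several, the brightest by its 4-array mean was used and the others are given beside it. 9 of the 10 genes were expressed, which here means a 4-array mean of at least 4.855 on the log2 scale, the median over all probe sets. Socs1 was the exception.

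The study crossed diethylnitrosamine (DEN), a carcinogen that liver cells activate, with a diet holding 0.2% cholic acid (CA), one of the bile acids that liver itself makes. The study had 4 groups: DEN followed by CA diet, DEN followed by control diet, CA diet without DEN, and control diet without DEN. They are called the DEN plus CA, DEN, CA and control pools below. Each was measured on 1 array that received pooled liver RNA from 3 to 5 mice aged 10 months. The sources used here give no strain, genotype or sex of the mice and no dose or time of DEN. Tumours appear in the title of the series and livers in the labels, so how much tumour tissue a pool held is not known. With 1 array a group there is no spread between replicates, and no test or p-value was made. Every difference below is between single pools.

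Growth hormone binds its receptor on hepatocytes and activates the kinase JAK2, which phosphorylates the receptor and the paired factors STAT5A and STAT5B. Phosphorylated STAT5 enters the nucleus and drives Igf1, Igfals, Socs2 and Cish, among other genes. CIS (the product of Cish) and SOCS2 then bind the phosphorylated receptor and damp the signal, which closes a feedback loop. SOCS3 is best known as the brake on the IL-6 receptor subunit gp130, upstream of STAT3 and the acute phase response, and SOCS1 as the brake on interferon gamma signalling. In rodents the temporal pattern of growth hormone differs between the sexes and sets many sex-biased liver genes through STAT5B.

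All values are log2 expression levels after RMA, so a difference of 1 is 2-fold, and levels of different probe sets are not set against each other. Array medians lay between 4.843 and 4.865, and 11650 named genes were expressed. The 18 probe sets for spiked hybridisation controls differed by at most 0.305 between the CA and control pools, 0.267 between the DEN plus CA and DEN pools, 0.203 between the DEN and control pools, and 0.370 between the DEN plus CA and CA pools. The 24 probe sets for poly-A controls, which are spiked into RNA before labelling, differed more, with medians of 0.31, -0.35, 0.45 and -0.19 in the same order of comparisons. Neither set covers the spread between mice. All 8 measured hepatocyte markers lay above the expression limit in every pool, with a mean level of 13.12 in the DEN plus CA pool, 13.32 in the DEN pool, 13.40 in the CA pool and 13.40 in the control pool.

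Cish, Socs2 and Socs3 were higher on the CA diet, Socs2 was also higher after DEN, and Ghr, Igf1 and Igfals were lower after DEN on either diet without reaching 2-fold in the probe sets used. The 3 STAT genes moved little. In the CA pool against the control pool 3 of the 9 expressed genes were at least 2-fold higher, where 0.661% of all expressed genes were, and 0 were 2-fold lower (0.592% of all). In the DEN plus CA pool against the DEN pool 2 of the 9 were 2-fold higher (0.266% of all) and 0 lower (0.472% of all). In the DEN pool against the control pool 1 of the 9 was higher (5.12% of all) and 0 lower (0.901% of all). In the DEN plus CA pool against the CA pool 1 of the 9 was higher (4.75% of all) and 0 lower (1.75% of all). With both treatments against neither, 3 of the 9 were higher (5.97% of all) and 0 lower (2.20% of all). The median difference of the 9 genes was -0.19 for the CA diet after DEN, -0.04 for the CA diet without DEN, 0.05 for DEN on the CA diet and 0.08 for DEN on the control diet. Over all expressed genes it was -0.02, 0.01, 0.00 and 0.04. The comparisons share arrays, so their counts are not independent.

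**Figure D1:**
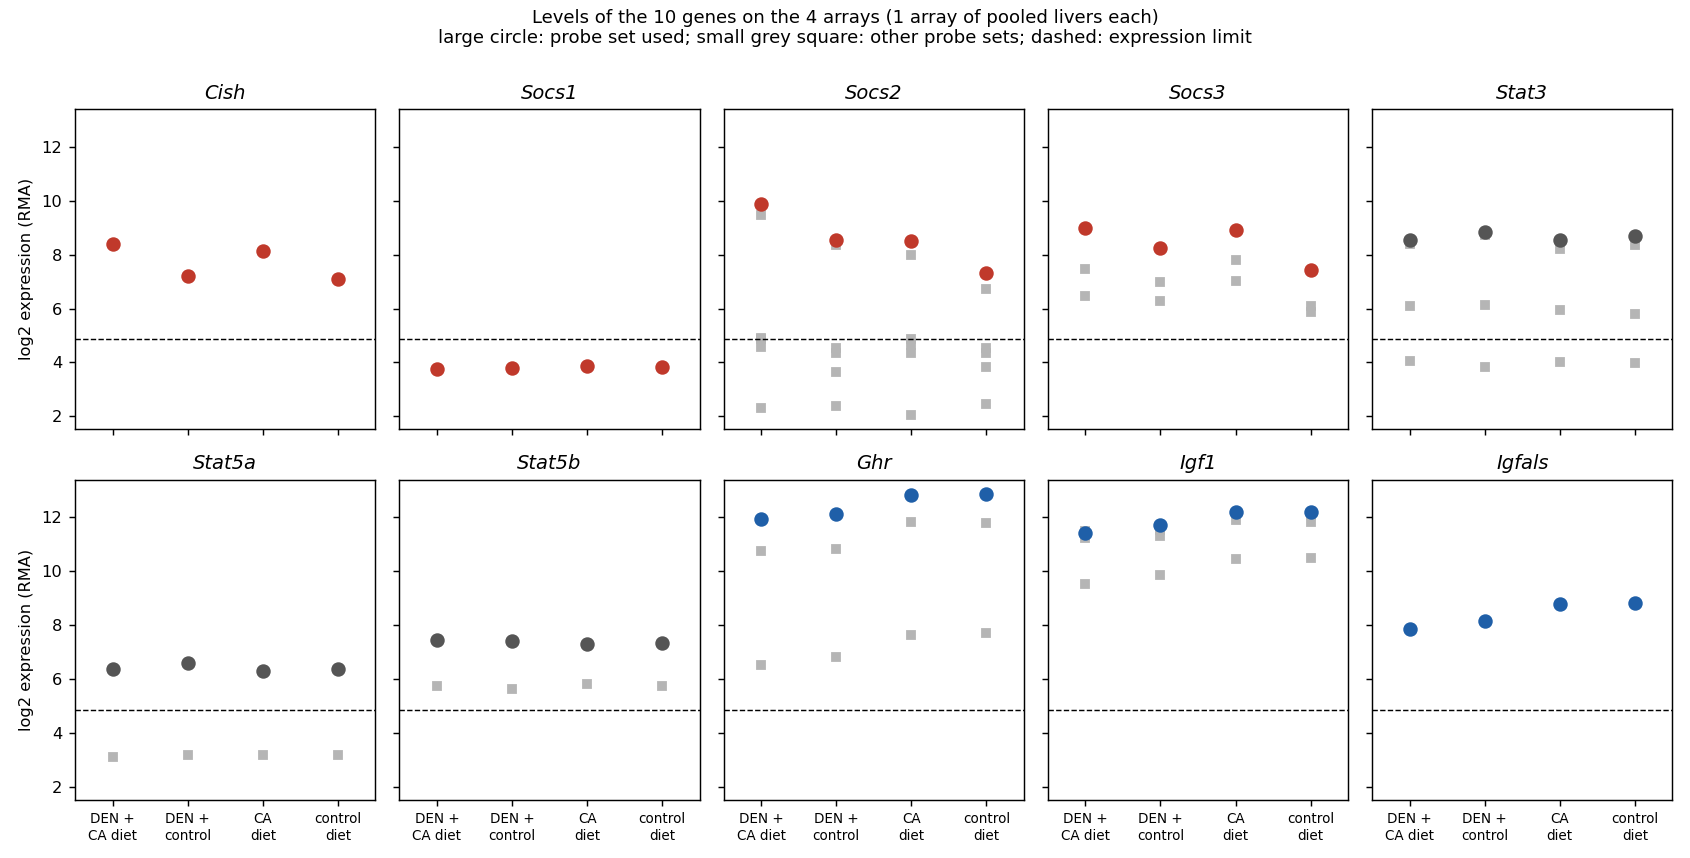
Levels of the 10 genes (log2 expression, vertical axis) on the 4 arrays, from left to right the DEN plus CA, DEN, CA and control pools. Large circles are the probe set used, small grey squares the gene's other probe sets, and the dashed line the expression limit of 4.855. Cish is higher in the 2 pools on the CA diet, Socs2 is highest in the DEN plus CA pool at 9.90 and lowest in the control pool at 7.34, and Ghr, Igf1 and Igfals are lower in the 2 DEN pools.

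The promoter windows of these genes were searched for TTCNNNGAA, the palindromic element that STAT5 and STAT3 dimers are known to bind, because 3 of the 4 feedback inhibitors moved together on the CA diet. The element reads the same on both strands. Windows ran from 250 bases before to 50 bases after each RefSeq transcription start (GRCm38.p6), and 9 of the 10 genes had at least 1 window, the exception being Socs2. The letters occurred in windows of 3 of the 9 genes, against 9.55% of all 27025 genes with a window, and in 4 of their 14 windows, against 8.30% of all 32851 windows. The stretches around them follow, 5′ to 3′ on the gene's strand, with the element in capitals.
Cish, chr9:107296654-107296683, plus strand, from 5 bases before the start to base 25 after it: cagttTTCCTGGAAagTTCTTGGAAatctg
Socs3, chr11:117969501-117969530, minus strand, 164 to 135 bases before the start: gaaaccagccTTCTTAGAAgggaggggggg
Igfals, chr17:24877598-24877627, plus strand, 246 to 217 bases before 1 start: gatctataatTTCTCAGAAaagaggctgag
Igfals, chr17:24878163-24878192, plus strand, 68 to 39 bases before another start: ctgccaggtgTTCCTAGAAgaggccctggg
Cish was the member with 2 copies side by side, within the first 20 bases of the transcript. A match describes these letters only and was not measured as binding, and the other members' windows without them say nothing of STAT control from elsewhere.

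Cish, the STAT5 target whose product blocks STAT5 docking, followed the diet and hardly DEN. Its 1 probe set stood at 8.41 in the DEN plus CA pool, 7.20 in the DEN pool, 8.13 in the CA pool and 7.11 in the control pool. The 2 pools on the CA diet were thus above both pools on the control diet, whether or not the mice had DEN. The diet difference was 1.21 after DEN (2.31-fold) and 1.02 without DEN (2.02-fold). The second of these lies at the edge of the threshold: it was 0.98 after quantile normalization, 0.98 with centred arrays and 0.99 with loess centring, all under 2-fold. DEN differences in Cish were 0.28 on the CA diet and 0.08 on the control diet, both inside the largest difference of a hybridisation control in those comparisons, and the second turned to -0.08 when arrays were centred on their medians of expressed genes. After DEN, 14 of 11650 expressed genes were as far or further up on the CA diet as Cish, itself included (0.12%).

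Socs2, the main brake on growth hormone receptor signalling in mouse growth, was higher with each treatment and highest with both. Its level was 9.90 in the DEN plus CA pool, 8.54 in the DEN pool, 8.50 in the CA pool and 7.34 in the control pool. The DEN pool and the CA pool stood at nearly the same level, each above the control pool and below the pool with both treatments. The CA diet difference was 1.36 after DEN (2.57-fold) and 1.16 without DEN (2.24-fold). The DEN difference was 1.40 on the CA diet (2.64-fold) and 1.20 on the control diet (2.30-fold). Against neither treatment, both together gave 2.56 (5.91-fold), close to the sum of the 2 single differences, 2.37.

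Socs2 had 6 probe sets, and both that lay above the expression limit showed the pattern. The second stood at 9.46, 8.37, 8.002 and 6.75 in the DEN plus CA, DEN, CA and control pools, with differences of 1.09 and 1.26 for the diet after and without DEN and 1.46 and 1.63 for DEN on the CA and control diets. The other 4 had 4-array means under the limit and ranged from -0.40 to 0.52 for the diet without DEN and from -0.18 to 0.00 for DEN on the control diet. 1 of them gave 1.28 for the diet after DEN. Taking the mean over all 6 in place of the brightest lowered the Socs2 diet difference to 0.69 after DEN and 0.53 without DEN, and the DEN difference to 0.60 on the CA diet and 0.43 on the control diet. Socs2 was among 8 of 11650 genes that were as far or further up on the CA diet after DEN (0.07%). It was also 1 of 2 genes at least 2-fold higher in all 4 single-treatment comparisons, the other being Mmp12, a macrophage elastase. That pair was singled out after the values were seen, and the 4 comparisons share arrays.

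Socs3, the brake on gp130 and STAT3 signalling, was higher in all 3 treated pools than in the control pool, with less for both treatments than the sum of the single differences. The probe set used stood at 8.98 in the DEN plus CA pool, 8.26 in the DEN pool, 8.91 in the CA pool and 7.44 in the control pool. The control pool was lowest, and the 2 pools on the CA diet were nearly level. The diet difference was 0.72 after DEN (1.65-fold) and 1.46 without DEN (2.75-fold), and 16 of 11650 genes were as far or further up without DEN (0.14%). The DEN difference was 0.08 on the CA diet and 0.82 on the control diet. Both treatments gave 1.54 over neither (2.90-fold), against a sum of single differences of 2.28. The diet effect after DEN minus that without DEN was therefore -0.74 for Socs3, compared with 0.20 for Socs2 and 0.19 for Cish. In the same difference of effects the poly-A controls had a median of -0.67 and the hybridisation controls reached at most 0.572 in size. None of the 9 expressed genes passed 2-fold in that difference of effects, where 1.17% of all expressed genes did in either direction.

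All 3 Socs3 probe sets were expressed, and the one used is of a kind whose probes can match other transcripts. The second, of the same kind, stood at 7.48, 6.99, 7.79 and 6.09 in the DEN plus CA, DEN, CA and control pools. The third, which carries no such mark, stood at 6.48, 6.26, 7.04 and 5.87 in that order. In these 2 probe sets the CA pool was the highest of the 4. For the diet without DEN the 3 gave 1.17 to 1.70, all past 2-fold. The diet difference after DEN lay between 0.21 and 0.72, the DEN difference on the control diet between 0.39 and 0.90, and the DEN difference on the CA diet between -0.57 and 0.08. The diet effect after DEN minus that without it lay between -1.22 and -0.74, with 1 of the 3 past 2-fold.

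Socs1, the brake on interferon gamma signalling, stayed under the expression limit in every pool. Its 1 probe set gave 3.77 in the DEN plus CA pool, 3.79 in the DEN pool, 3.86 in the CA pool and 3.83 in the control pool. A change in so dim a probe set would not be measured well, so no fold is given.

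**Figure D2:**
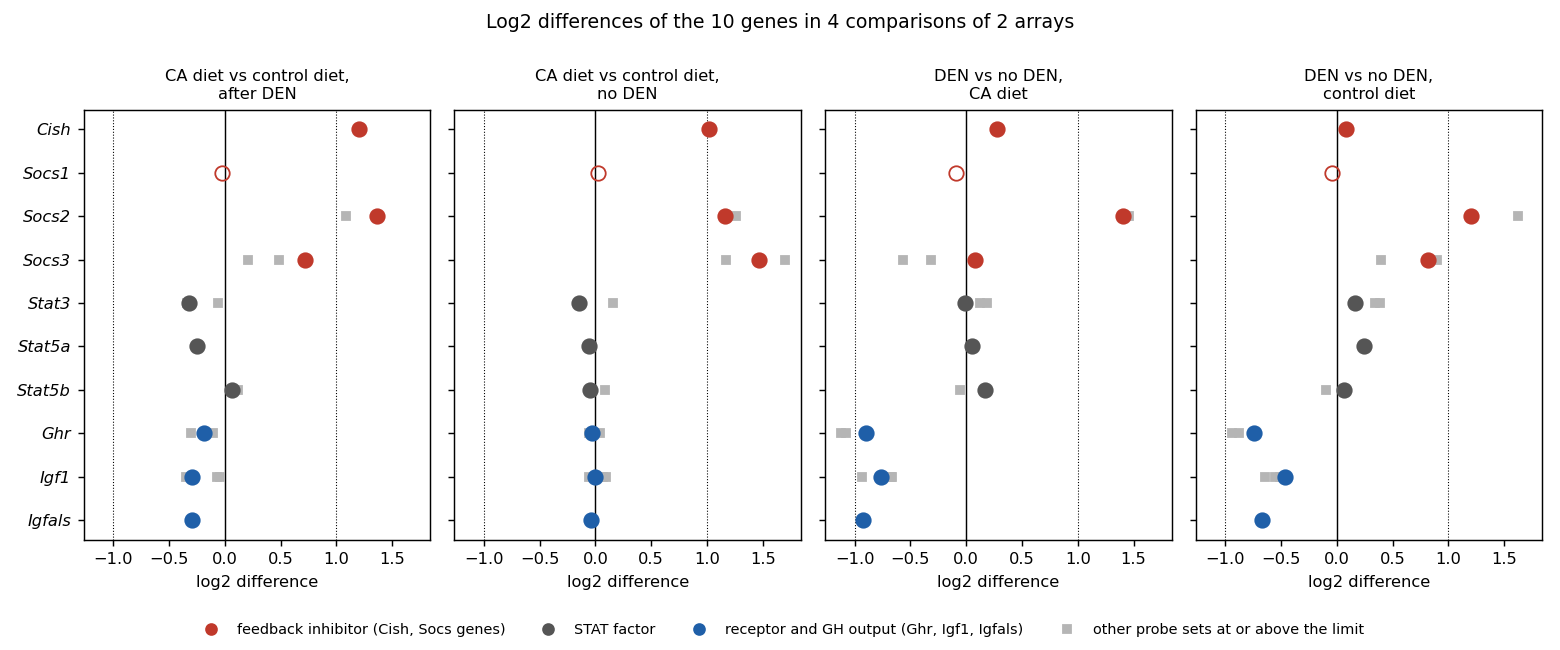
Log2 differences of the 10 genes for the CA diet after DEN and without DEN and for DEN on the CA diet and on the control diet, with the probe set used as circles (open for Socs1, under the expression limit) and the gene's other probe sets as squares where they reach the expression limit, and dotted lines at 2-fold. Socs2 lies past 2-fold in all 4 comparisons (1.36, 1.16, 1.40 and 1.20), Cish in the diet comparisons, and Socs3 in the diet comparison without DEN.

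Markers of Kupffer cells, the resident macrophages of liver, moved with the 3 inhibitors on the CA diet. All 10 were above the expression limit in every pool, and their mean level was 8.90 in the DEN plus CA pool (range 5.83 to 11.31), 8.27 in the DEN pool (5.11 to 11.16), 8.02 in the CA pool (5.63 to 10.41) and 7.38 in the control pool (5.11 to 9.72). In both diet comparisons 10 of 10 were above 0, with medians of 0.63 after DEN and 0.59 without DEN. Over all expressed genes the medians were -0.02 and 0.01. In each, 1 of 10 was 2-fold higher, against 0.266% and 0.661% of all expressed genes. Without DEN that 1 was Marco at 1.30, whose second probe set gave 0.49. For DEN, 10 of 10 were above 0 on the CA diet (median 0.41) and 9 of 10 on the control diet (median 0.65). The size of the DEN difference on the control diet varied among the 10. Clec4f and Timd4 hardly differed (-0.0035 and 0.0020), and Vsig4 stood at 9.14 in the DEN pool and 8.98 in the control pool. Cd14 at 3.04, Mpeg1 at 1.89 and Cd68 at 1.35 differed most. Adgre1, Cd5l and Marco of the same list differed by 0.66, 0.67 and 0.51 there, though Marco's second probe set gave -0.33. With DEN, Socs2 differed by 1.40 and 1.20, Cish by 0.28 and 0.08 and Socs3 by 0.08 and 0.82 on the CA and control diets. In pooled liver RNA a change in the number of cells of a type and a change in the RNA per cell cannot be told apart. The part of macrophages in the Socs2, Socs3 and Cish differences was not tested.

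Among the STAT genes, none differed 2-fold in any comparison. Stat3, the acute phase factor downstream of gp130, was measured at 8.54 in the DEN plus CA pool, 8.86 in the DEN pool, 8.55 in the CA pool and 8.69 in the control pool. Its full range over the 4 arrays was 0.32. Stat5a, expressed in many tissues, had 6.36, 6.61, 6.30 and 6.36 in the same order of pools, a range of 0.31. Stat5b, the STAT5 form that carries most of the growth hormone response in male mouse liver, had 7.46, 7.40, 7.29 and 7.34, a range of 0.17. The 2 other expressed probe sets of Stat3 gave -0.34 and -0.06 for the diet after DEN, where the one used gave -0.32. For the diet without DEN they gave -0.14 and 0.15, where the one used gave -0.15. These are RNA levels, and the phosphorylation that activates STAT proteins was not measured.

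Ghr, the growth hormone receptor, was lower in both DEN pools and hardly differed with the diet. Its level was 11.93 in the DEN plus CA pool, 12.12 in the DEN pool, 12.82 in the CA pool and 12.86 in the control pool, so both pools without DEN were above both with it. The DEN difference was -0.90 on the CA diet (1.86-fold lower) and -0.74 on the control diet (1.67-fold lower), and the diet difference -0.19 after DEN and -0.04 without it. The other 2 probe sets had the same order between DEN and no DEN. Their DEN differences were -1.08 and -1.12 on the CA diet, past 2-fold, and -0.94 and -0.88 on the control diet. On the control diet 278 of 11650 expressed genes were as far or further down as Ghr (2.39%).

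Igf1, the secreted growth factor that liver makes under growth hormone, followed the same order. It stood at 11.42 in the DEN plus CA pool, 11.72 in the DEN pool, 12.18 in the CA pool and 12.18 in the control pool. The DEN difference was -0.76 on the CA diet (1.69-fold lower) and -0.47 on the control diet (1.38-fold lower). The CA and control pools did not differ at this resolution. All 4 Igf1 probe sets were lower after DEN, at -0.94 to -0.66 on the CA diet and -0.65 to -0.47 on the control diet.

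Igfals, which encodes the acid-labile subunit that keeps IGF1 and its binding protein IGFBP3 in a long-lived serum complex, had 1 probe set. It stood at 7.84 in the DEN plus CA pool, 8.14 in the DEN pool, 8.77 in the CA pool and 8.81 in the control pool. The DEN difference was -0.92 on the CA diet (1.90-fold lower) and -0.67 on the control diet (1.59-fold lower). With both treatments against neither, Igfals was lower by 1.95-fold, Ghr by 1.91-fold and Igf1 by 1.69-fold. When the arrays were centred on their medians of expressed genes, Igfals just reached 2-fold for DEN on the CA diet and Ghr stood at -0.98. The mean over the 3 Ghr probe sets was -1.03 in that comparison.

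**Figure D3:**
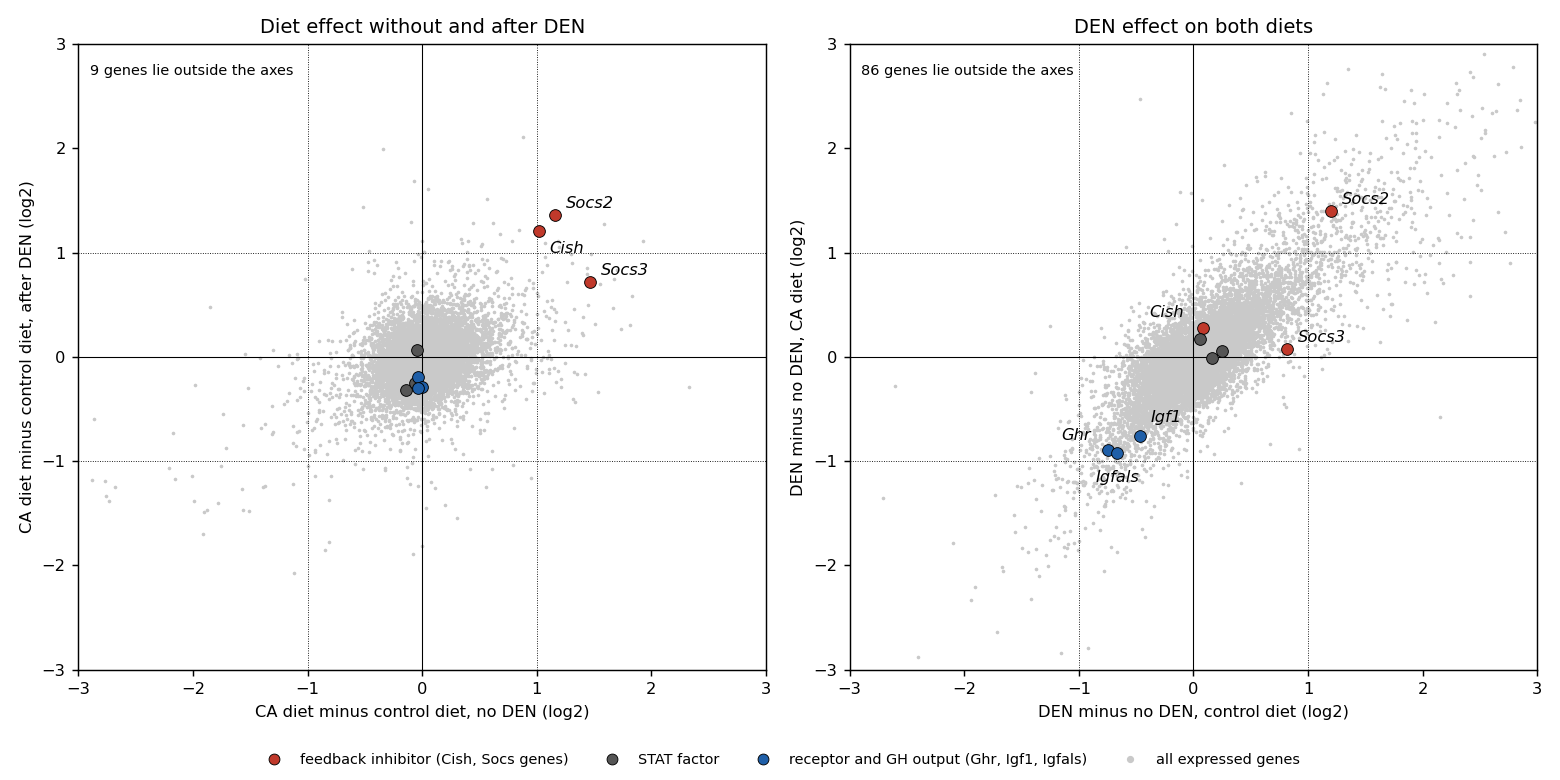
Expressed genes as grey points, with the 9 expressed genes of the pathway coloured by role; 9 genes in the left panel and 86 in the right panel lie outside the axes. The left panel sets the CA diet difference after DEN (vertical, log2) against that without DEN (horizontal, log2), and the right panel sets the DEN difference on the CA diet against that on the control diet, with dotted lines at 2-fold. Socs2 and Cish lie in the upper right of the left panel at 1.36 and 1.21 on the vertical axis, Socs3 lies lower at 0.72, and Ghr, Igf1 and Igfals lie at the lower left of the right panel.

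Markers of other cells moved with DEN beside these 3 genes. The 9 markers of stellate cells and fibroblasts averaged 7.96 in the DEN plus CA pool, 8.13 in the DEN pool, 7.39 in the CA pool and 7.29 in the control pool. Their median DEN difference was 0.51 on the CA diet, with 7 of 9 above 0, and 0.80 on the control diet, with 6 of 9 above 0. Collagen genes and the smooth muscle actin Acta2 were among the higher ones, and the stellate cell enzyme Lrat was lower, at -0.39 and -0.41. The hepatocyte markers had medians of -0.23 and -0.08 in these comparisons, with 4 of 8 and 3 of 8 above 0. Of the hepatocyte markers, Tat, a glucocorticoid-induced enzyme of tyrosine breakdown, was lower by more than 2-fold, at -1.65, for DEN on the CA diet. The part of cell composition in the Ghr, Igf1 and Igfals values was not tested.

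The IGF axis around Igf1 and Igfals was described from 15 further genes, 14 of them expressed. Igfbp1, a binding protein that hepatocytes release in fasting and stress, had 13.88 in the DEN plus CA pool, 13.88 in the DEN pool, 9.80 in the CA pool and 10.03 in the control pool. That is 16.8-fold higher for DEN on the CA diet and 14.5-fold higher for DEN on the control diet. Igfbp3, the partner of Igfals in the serum complex, had 7.33 in the DEN plus CA pool, 8.34 in the DEN pool, 6.93 in the CA pool and 7.03 in the control pool. It was higher for DEN on the control diet, at 1.32, and lower for the CA diet after DEN, at -1.01, and its second probe set gave 1.24 and -0.94. No other gene of the list passed 2-fold in these 4 comparisons, and the list's median was 0.31 for DEN on the CA diet and 0.15 on the control diet (-0.01 with centred arrays), against 0.00 and 0.04 over all expressed genes.

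The kinases, phosphatases and other SOCS, STAT and PIAS genes of the pathway differed less with the CA diet than the 3 inhibitors, while Grb10 was higher with DEN. Of 23 genes, 20 were expressed, and 0 of them passed 2-fold for the CA diet after or without DEN. Of all expressed genes, 0.738% did so after DEN and 1.25% without it, so 0 of 20 is near those shares. Jak2, the kinase of the growth hormone receptor, had 8.06 in the DEN plus CA pool, 7.90 in the DEN pool, 8.01 in the CA pool and 7.75 in the control pool. For DEN 1 of the 20 was 2-fold higher on the CA diet (4.75% of all) and 2 on the control diet (5.12% of all). With 20 genes, counts of 1 and 2 are not far from those shares. Grb10, an adaptor that inhibits insulin and IGF receptors, had 7.12 in the DEN plus CA pool, 6.59 in the DEN pool, 5.56 in the CA pool and 5.22 in the control pool. It was 2.95-fold higher for DEN on the CA diet and 2.58-fold higher on the control diet. Only 1 of its 3 probe sets reached the expression limit. Over all 3 the DEN differences went down to -0.12 on the CA diet and 0.04 on the control diet. Socs5, a relative of the members, differed by 0.79 for DEN on the CA diet and 1.03 on the control diet. The list's median DEN difference was 0.05 on the CA diet (-0.03 with centred arrays) and 0.21 on the control diet.

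Of 15 receptors that signal through STAT proteins 12 were expressed, and several differed with DEN. Lepr, the leptin receptor, had 8.22 in the DEN plus CA pool and 7.68 in the DEN pool, while the CA pool at 4.34 and the control pool at 4.16 were under the expression limit. With those 2 raised to the limit, Lepr was at least 10.3-fold higher for DEN on the CA diet and at least 7.09-fold higher on the control diet. Its 3 probe sets above the limit ranged from 0.92 to 3.87 and from 1.06 to 3.52. Osmr, the oncostatin M receptor that pairs with gp130, differed by 0.98 for DEN on the CA diet and 2.06 on the control diet, though its 2 other probe sets lay under the limit and 1 of them gave -0.46 on the control diet. Ifngr1, an interferon gamma receptor chain, differed by 1.16 and 1.40. Il6ra, the IL-6 receptor, was lower for DEN, at -1.29 on the CA diet and -0.70 on the control diet, and its second probe set gave -0.80 and -0.54. For the CA diet 0 of the 12 passed 2-fold with or without DEN (0.738% and 1.25% of all expressed genes), which is near those shares.

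Sex-biased liver genes are a known readout of growth hormone and STAT5B. Of 23 male-biased genes 18 were measured, all expressed. For DEN on the CA diet 5 were 2-fold lower and 2 higher (1.75% and 4.75% of all expressed genes), with a median of -0.72. For DEN on the control diet 4 were lower and 1 higher (0.901% and 5.12% of all), with a median of -0.52. Over all expressed genes the medians were 0.00 and 0.04. On the control diet 2 of 18 were above 0. Slco1a1, an organic anion carrier, had 9.46 in the DEN plus CA pool, 9.50 in the DEN pool, 11.13 in the CA pool and 11.06 in the control pool. Hsd3b5, a steroid-metabolising enzyme of male mouse liver, had 10.34, 10.41, 11.48 and 11.62 in the same order. Both were thus lower in the 2 DEN pools and nearly level between diets. Serpina12, which encodes the adipokine vaspin, went the other way, at 1.56 for DEN on the CA diet and 1.41 on the control diet. So did Elovl3, a fatty acid elongase, at 1.65 and 0.46.

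For the CA diet the male-biased list had medians of -0.07 after DEN and -0.12 without it. Bcl6, a repressor that competes with STAT5 at many liver sites, had 6.77 in the DEN plus CA pool, 8.54 in the DEN pool, 8.15 in the CA pool and 8.96 in the control pool. Its diet difference was -1.77 after DEN and -0.81 without it, but its second probe set gave -0.37 and -0.36. Elovl3 was lower on the CA diet, at -0.55 after DEN and -1.73 without DEN.

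Female-biased genes moved in both directions, though 9 of the 14 expressed were above 0 for DEN on the control diet. Of 23, 17 were measured and 14 expressed. For DEN on the CA diet 4 were 2-fold higher and 3 lower (4.75% and 1.75% of all expressed genes), with a median of 0.14. For DEN on the control diet 6 were higher and 1 lower (5.12% and 0.901% of all), with a median of 0.36. The medians over all expressed genes were 0.00 and 0.04. For the CA diet, 0 passed 2-fold after DEN (0.738% of all expressed genes). Without DEN 3 were higher and 4 lower (0.661% and 0.592% of all). With values under the expression limit raised to it, the counts without DEN became 3 higher and 3 lower. Cyp2b9, a female-biased cytochrome P450, had 8.56 in the DEN plus CA pool, 8.85 in the DEN pool, 7.20 in the CA pool and 4.87 in the control pool. Cyp2b10, a related enzyme that is also a drug-induced target of the receptor CAR, had 5.59, 5.99, 9.30 and 7.99 in the same order, and so went the opposite way with DEN. For DEN on the control diet Abcd2, Nipal1 and Cyp17a1 were higher, at 3.41, 2.53 and 2.44, after Cyp2b9 at 3.98.

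**Figure D4:**
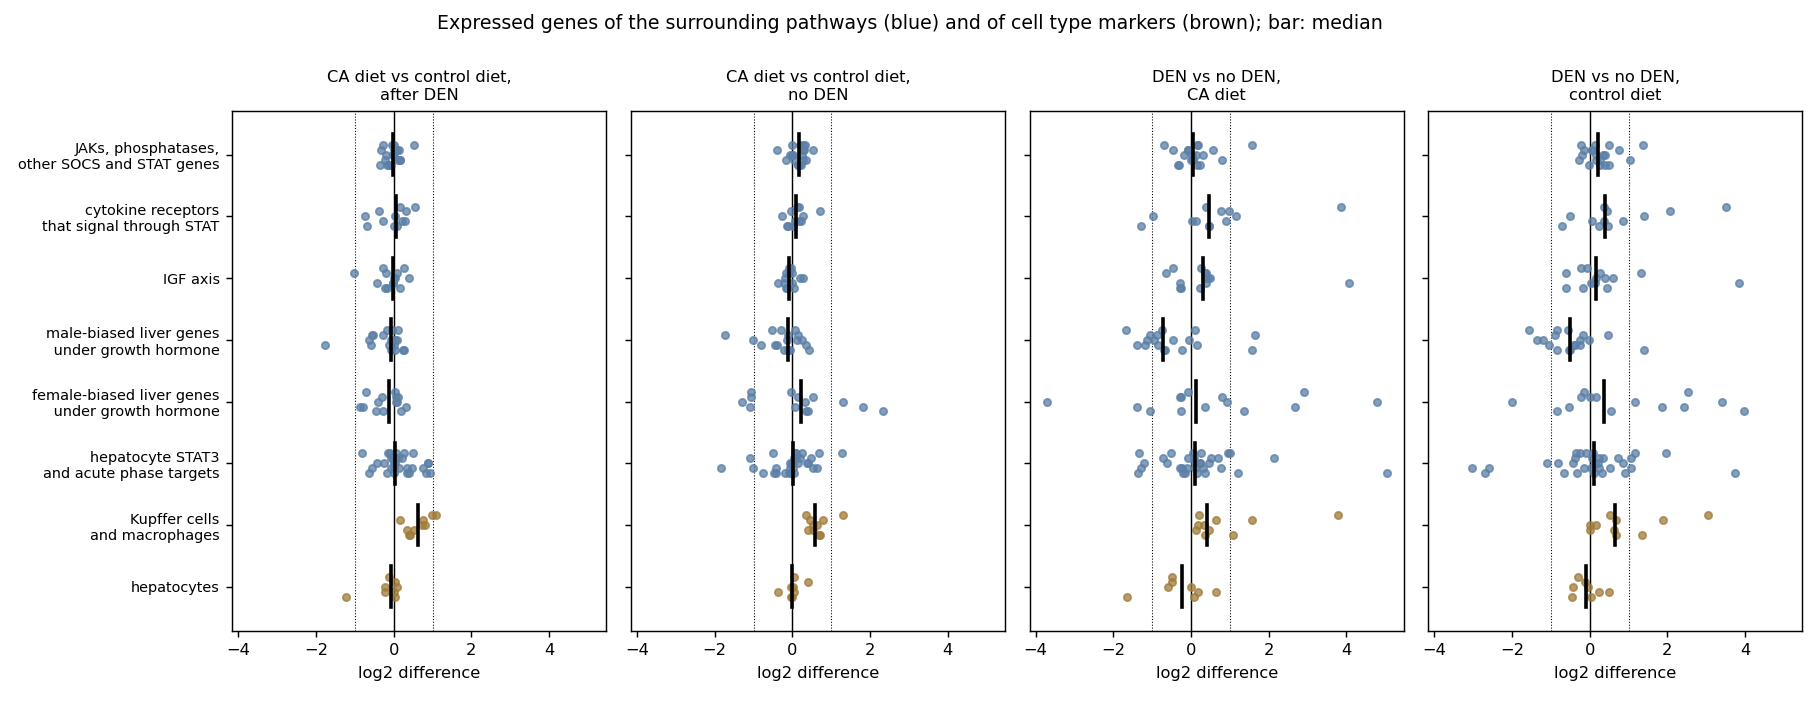
Log2 differences of the expressed genes of 6 pathway lists and of 2 marker lists (points) and their median (line) for the CA diet after and without DEN and for DEN on the CA and control diets, with dotted lines at 2-fold. The male-biased list lies mostly below 0 for DEN, with medians of -0.72 and -0.52, while the median of the Kupffer cell markers lies above 0 in all 4 comparisons.

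STAT3 targets and acute phase proteins were set beside Socs3. Of 33 genes 32 were expressed, with medians of 0.04 for the CA diet after DEN and 0.03 without it, where Socs3 differed by 0.72 and 1.46. After DEN 0 of the 32 passed 2-fold with the diet (0.738% of all expressed genes). Without DEN 1 was higher and 3 lower (0.661% and 0.592% of all). The higher one was the chemokine Cxcl1 at 1.27, though its 3 expressed probe sets ranged from 0.69 to 1.46. The lower ones were Orm2 at -1.85, Apcs at -1.09 and Saa2 at -1.02, all acute phase proteins. For DEN on the CA diet 4 of the 32 were 2-fold higher and 4 lower (4.75% and 1.75% of all). For DEN on the control diet 5 were higher and 4 lower (5.12% and 0.901% of all). Lcn2, an iron-siderophore carrier made by injured liver, had 12.89 in the DEN plus CA pool, 12.06 in the DEN pool, 7.85 in the CA pool and 8.32 in the control pool. Saa1, the acute phase apolipoprotein, had 10.97, 10.04, 12.32 and 12.74 in the same order and was thus lower in both DEN pools.

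Among immediate early genes, whose RNA rises within minutes of a stimulus, Fos, Jun and Egr1 were higher in all 3 treated pools than in the control pool, as Socs3 was. Fos had 8.44 in the DEN plus CA pool, 7.34 in the DEN pool, 9.02 in the CA pool and 5.19 in the control pool. Jun, its partner in the factor AP-1, differed by 0.83 for the CA diet after DEN, 1.70 for the CA diet without DEN and 1.13 for DEN on the CA diet. Egr1 had 11.76, 11.01, 9.23 and 7.56 in the order of pools given for Fos. Of 22 ligands and immediate early genes 15 were expressed. For the CA diet 1 was 2-fold higher after DEN (0.266% of all expressed genes) and 3 without it (0.661% of all). The list's medians were 0.35 and 0.39, against -0.02 and 0.01 over all. For DEN 5 were 2-fold higher on the CA diet and 7 on the control diet (4.75% and 5.12% of all). The medians were near 0 (7 of 15 above 0) and 0.60 (12 of 15 above 0), against 0.00 and 0.04 over all. Dusp1, a phosphatase of MAP kinases, and Nfkbia, the inhibitor of NF-kappaB, went the other way with DEN, at -0.35 and -0.68 on the CA diet and -0.32 and -0.34 on the control diet. The ligands Il6, Tnf, Osm and Ifng were under the expression limit.

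By root mean square distance between profiles centred on their own 4-array mean, the 3 expressed genes nearest to Socs2 were Anxa13 (0.219), Usp18 (0.223) and Mcm6 (0.229). Anxa13 had 6.42 in the DEN plus CA pool and 4.90 in the DEN pool. Its levels in the CA pool (4.70) and the control pool (4.13) were under the expression limit. Usp18 had 8.65 in the DEN plus CA pool, 7.83 in the DEN pool, 7.66 in the CA pool and 6.62 in the control pool, the same order as Socs2. Those nearest to Socs3 were Marco (0.119), Bst2 (0.132) and Cib3 (0.148). Marco, a scavenger receptor of Kupffer cells, had 7.02, 6.03, 6.81 and 5.51 in the same order of pools, though its second probe set gave 0.49 for the CA diet without DEN, where the one used gave 1.30. With 4 arrays many profiles look alike, so these distances are a description.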

How the data were processed

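The deposited values are log2 expression levels that the authors obtained by RMA; per the submitters' processing notes the software was Partek 6.5. Trizol served for RNA isolation and a biotin dendrimer kit for labelling of 1 µg, per the labels' protocols. RMA draws the arrays' distributions together, which removes a shift shared by most genes. Of 45101 probe sets, 34945 named 1 gene, 932 several and 9211 none here, by the platform annotation; 64 were controls. Only those with 1 symbol were used. A gene took its probe set with the highest mean, and 9010 genes had several. Differences of 2 arrays were counted from 2-fold on. The members and lists were chosen with earlier results of these data known. The named genes are all 10 members, up to 4 expressed genes of each list with the largest difference in a comparison, and the 3 genes nearest to the 2 members with the largest range. Jak2, Mmp12, Dusp1, Nfkbia, Lrat, Clec4f, Timd4 and 4 ligands under the expression limit were named outside that rule, some after their values were seen. There were 8 pathway lists and 8 marker lists; 1 pathway list is not reported here. 9 alternatives were tried. With 1 array a group, precision is limited by the number of arrays, and a value under an alternative counted as moved if it shifted by more than the largest difference of a hybridisation control in that comparison. Steps were tested on simulated data. Python 3.11.15, pandas 2.3.3 and matplotlib 3.10.9 were used.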

Additional observations from a re-analysis of the deposited data

How the results depend on the processing

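Of 54 member counts under 9 alternatives 41 stayed within 1.5 times the reported count, and no member difference past 2-fold changed direction. At a 1.5-fold threshold 4 of 9 members passed for DEN on the control diet (2 higher, 2 lower, against 15.5% of all genes), 4 for DEN on the CA diet (1 higher, 3 lower, against 16.3%), 6 for both treatments against neither (3 higher, 3 lower, against 18.9%) and 1 for the difference between the diet effects (against 5.43%). With arrays centred on their medians of expressed genes, 2 passed for DEN on the CA diet (6.33% of all genes) and 5 for both against neither (8.06%). With the mean over a gene's probe sets 1 passed for the CA diet after DEN (0.709% of all genes) and 0 for DEN on the control diet (4.77%). With every probe set counted alone, of 20 expressed, 6 passed for the CA diet without DEN (1.09% of all probe sets), 2 for DEN on the control diet (5.18%), 4 for DEN on the CA diet (5.70%), 7 for both against neither (7.17%) and 1 for the difference between the diet effects (1.05%). Of 480 single member differences 7 moved, all with the mean over probe sets: 5 of Socs2 and, for both against neither, Socs3 at 1.18 and Stat3 at 0.07. Centring moved the median of all expressed genes by -0.16 for DEN on the control diet and by -0.12 for both against neither. It changed the calls for DEN on the control diet to 455 higher and 192 lower, against 596 and 105, and for the difference between the diet effects to 68 and 70, against 51 and 85. Of 432 list medians 14 moved. No paired analysis was possible because each group has 1 array.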

Other observations

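Mean levels of further marker lists are given as values. Those of the 7 measured cholangiocyte markers were 5.75 in the DEN plus CA pool, 5.59 in the DEN pool, 4.32 in the CA pool and 4.10 in the control pool. Among them Tspan8 differed by 7.69, Sox9 by 1.31 and Epcam by -0.05 for DEN on the control diet. In the control pool Tspan8 at 3.69 and Sox9 at 4.74 were under the expression limit, so the size of their differences is uncertain. The 8 endothelial markers averaged 7.31, 7.15, 6.74 and 6.68 in that order, and the 6 neutrophil markers 5.62, 5.46, 5.08 and 4.86. The 8 T and NK cell markers averaged 5.24, 5.20, 4.79 and 4.84, and the 5 B and plasma cell markers 5.30, 5.45, 4.82 and 4.79. For T and NK cells 4 markers were expressed, and 1 was above 0 for DEN on the control diet, with a median of -0.09. Among plasma cell markers Jchain was at 2.41 and Mzb1 at -0.05 in that comparison. Several of these means lie near or under the expression limit.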
